A study of Triticum aestivum with 4 samples.

Results

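The tubulin genes of bread wheat (*Triticum aestivum*) were followed on 4 Affymetrix wheat arrays of flag leaves. Members were all probe sets whose gene symbol or synonym contains tubb or tuba. The rule found 10 of the 61115 probe sets that are not controls, for 6 genes. Of these, 8 probe sets belong to 5 beta-tubulin genes (tubb1, tubb2, tubb3, Tubb4 and Tubb5) and 2 to the alpha-tubulin gene TUBA. tubb1, tubb2, tubb3 and Tubb4 have 1 probe set each, TUBA 2 and Tubb5 4. The beta-tubulins carry the locus symbols LOC543257 (tubb1), LOC543258 (tubb2), LOC543473 (tubb3), LOC543260 (Tubb4) and LOC543261 (Tubb5).

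All plants were of the cultivar Yangmai 16. NC plants came from parents that never met priming heat and stood at 26 °C in daytime and 22 °C at night during the 6 treatment days, which began on day 10 after anthesis. NH plants had the same kind of parent but were kept hot during those days, at 34 °C in daytime and 30 °C at night. PC and PH plants descended from heat-primed parents, and their own growth temperatures were those of NC and NH. The priming of the parents comprised 2 days at 32 °C (night 28 °C) when they had 7 leaves, 2 more such days when they had 9 leaves, and 7 days at 34 °C (night 30 °C) that began on day 10 after their anthesis. Each group had 1 array, so no value has a replicate error, and the number of arrays limits the precision. The design asks what heat does to the leaf and whether the parents' priming alters it.

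Tubulin is the building block of microtubules. An alpha- and a beta-tubulin join into a dimer that binds GTP, and dimers stack into hollow filaments that grow and shrink at their ends. Plants use several genes for each kind. In leaf cells, arrays of microtubules under the cell membrane guide the enzymes that lay down cellulose, and in dividing cells microtubules form the preprophase band, the spindle and the phragmoplast that builds the new wall. Wheat is hexaploid, so near-identical copies of each gene lie in its subgenomes and a probe set may read more than one of them.

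Intensities are linear values as deposited, and levels are compared between arrays and not between probe sets. Values below a floor of 12.3, the median of all values, were raised to it before log2 was taken. A log2 difference of at least 1 in size is called past 2-fold. Of the 10 tubulin probe sets, 9 were above the floor on all 4 arrays, so none entered the counts through 1 temperature alone. The tenth, TUBA Ta.723.1.S1_at, lay below it on each array, and its response was not measured. The suffix _at alone marks 5 of the 10, while 1 ends in _s_at and 4 in _x_at, types that can match several transcripts. As counts over the series, 30265 to 30938 probe sets were above the floor per array.

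The check of tissue rested on 6 green leaf genes, all above the floor on all 4 arrays, with rbcl, the Rubisco large subunit, between 15575 and 16875. The others were lower on the heated arrays, among them FBP at 1692 (NC) and 112 (NH), the Calvin cycle kinase PRK at 5887 and 1275, and petC, the Rieske iron-sulfur protein of photosynthetic electron transport, at 7853 and 2339. These 3 of the 6 were past 2-fold downward in NH against NC (median log2 difference over the 6 -1.36), and 1 of 6 in PH against PC (median -0.60). Of all measured probe sets, 10.5% and 9.99% were past 2-fold downward in these comparisons. The summed intensity of the 6 was 43078 (NC), 25807 (NH), 45283 (PC) and 33875 (PH). Of 15 grain protein genes, 8 were below the floor on all 4 arrays and 7 were measured. In NH against NC 2 were past 2-fold upward, beside 11.1% of all measured probe sets, and in PH against PC 1, beside 9.69%. The avenin-like gene avnla, past 2-fold in both, read 11.2 (NC), 659 (NH), 9.50 (PC) and 72.9 (PH). It and Serpin-Z2A, the other gene counted upward, were above the floor on the heated arrays alone. Both entered these counts through the heated arrays, and their levels without heat were not measured. The grain list summed to 455 (NC), 1390 (NH), 490 (PC) and 700.1 (PH). Of 2 anther genes, raftin1a was below the floor throughout and raftin1b lay between 13.4 and 16.8. The 3′ to 5′ signal ratio of ubiquitin was 0.645 on NC and 0.750 on PC against 0.929 on NH and 0.992 on PH. That of actin was 0.243 and 0.173 on the unheated and 0.135 and 0.136 on the heated arrays. The actin 3′ probe set read only 4.20 (NC), 3.51 (NH), 3.52 (PC) and 3.22 (PH). These values did not reach the floor, so the actin ratio cannot be set against that of ubiquitin. The ratio of the control Sucsyn was 50.9 (NC), 60.2 (NH), 45.2 (PC) and 55.1 (PH), higher with heat. Its 5′ probe set, at 5.86 (NC) and 6.11 (PC), was under the floor without heat, which limits this ratio too. Spiked poly-A controls had a median ratio of 1.87 for NH over NC and of 0.812 for PH over PC (36 probe sets). The part of these measures in the tubulin results was not tested.

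tubb1 and tubb3 had the lowest tubulin heat differences in the primed background, and tubb1 also in the unprimed one. tubb1 (Ta.212.1.S1_at), a beta-tubulin, had an intensity of 491 (NC), 112 (NH), 470.0 (PC) and 86.1 (PH). Both heated arrays were far below both others, and the unheated arrays were close to each other. The level was 4.39-fold lower in NH than in NC and 5.46-fold lower in PH than in PC. Of all probe sets measured in each pair, 3.34% and 2.08% had a lower log2 difference.

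tubb3 (Ta.2837.1.S1_s_at), a second beta-tubulin, stood at 793 (NC), 309 (NH), 774 (PC) and 164 (PH). The heated arrays were again below the unheated ones, and PH was the lowest of the 4. Intensity was 2.56-fold lower in NH than in NC and 4.73-fold lower in PH than in PC. Its probe set is the 1 of type _s_at, so its signal may come from several transcripts.

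tubb2 (Ta.1544.1.S1_at) read 134 (NC), 64.7 (NH), 189 (PC) and 66.3 (PH). Heated arrays lay below unheated ones, with nearly the same level on NH and PH and the highest value on PC. The difference was 2.07-fold in the unprimed and 2.84-fold in the primed background, the first only just past the 2-fold rule. With each array scaled to a common median it was -0.98 on the log2 scale, and so no longer past it.

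Tubb4 (Ta.28022.1.S1_x_at) gave 542 (NC), 405 (NH), 528 (PC) and 293 (PH). The order of the arrays was that of tubb3, but the differences were smaller, 1.34-fold and 1.80-fold lower with heat. Neither passed 2-fold.

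Tubb5 was read by 4 probe sets, which share their gene and are not independent, and they form pairs by the middle part of their ID. Ta.214.1.S1_at had 53.7 (NC), 33.4 (NH), 50.2 (PC) and 30.3 (PH), and Ta.214.1.S1_x_at had 58.0, 37.8, 60.1 and 41.6 on the same arrays. Neither was past 2-fold, at 1.61-fold and 1.53-fold lower in NH and 1.66-fold and 1.44-fold lower in PH. Ta.214.2.A1_at had 70.2 (NC), 26.7 (NH), 73.2 (PC) and 24.7 (PH). Ta.214.2.A1_x_at had 101 (NC), 41.6 (NH), 101 (PC) and 32.1 (PH). Both of this pair passed 2-fold, at 2.63-fold and 2.42-fold lower in NH and 2.96-fold and 3.16-fold lower in PH. Heated arrays were below unheated ones at all 4 probe sets. Within Tubb5 the log2 difference thus ranged from -1.39 to -0.62 for NH against NC and from -1.66 to -0.53 for PH against PC, and the difference between the pairs was not tested. Their lowest values were 2.01 to 3.08 times the floor, which bounds how far a fall could be followed.

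TUBA, the alpha-tubulin, was read by Ta.812.1.S1_x_at at 2754 (NC), 2438 (NH), 2569 (PC) and 2151 (PH). The heated arrays were below the unheated ones by a small margin, 1.13-fold in the unprimed and 1.19-fold in the primed background. The other TUBA probe set, Ta.723.1.S1_at, had 6.01, 5.57, 5.48 and 5.06, all below the floor.

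**Figure D1:**
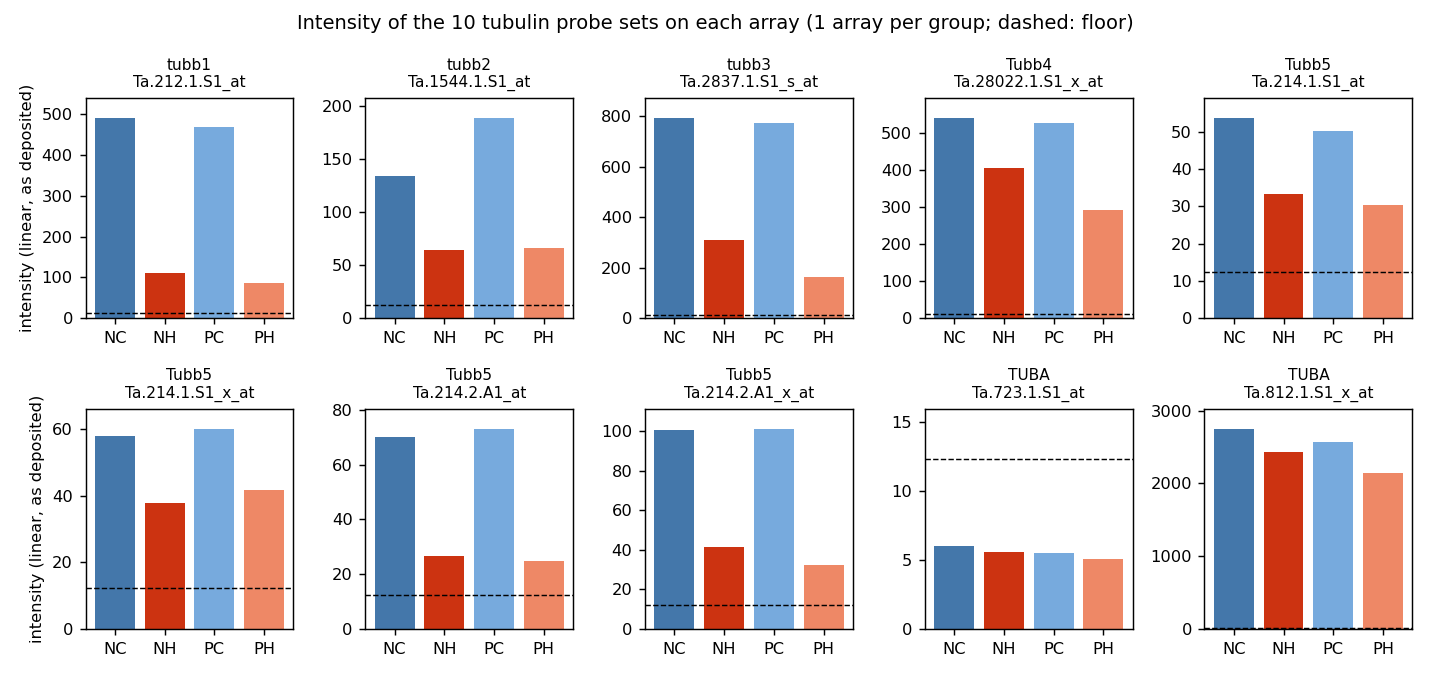
Linear intensity as deposited (y axis, from 0, with its own scale per panel) of each of the 10 tubulin probe sets on the arrays NC, NH, PC and PH (bars, 1 array each, so no error bars). The dashed line is the floor of 12.3. At 9 probe sets both heated arrays are below both unheated ones, tubb1 from 491 and 470.0 down to 112 and 86.1, while TUBA Ta.723.1.S1_at is below the floor throughout.

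Counted together, 5 of the 9 measured tubulin probe sets, from 4 genes (tubb1, tubb2, tubb3 and Tubb5), were past 2-fold downward in NH against NC, and 0 upward. Over all 32695 probe sets measured in that pair, 10.5% were past 2-fold downward and 11.1% upward. The median log2 difference of the tubulin probe sets was -1.05, from -2.14 to -0.18, beside 0.02 over all measured probe sets. In PH against PC the same 5 probe sets passed and 0 rose past 2-fold, beside a background of 9.99% downward and 9.69% upward. The tubulin median there was -1.51, from -2.45 to -0.26, beside 0.04 over all 32454. Being past 2-fold lower in both seed backgrounds held for 5 of 9 tubulin probe sets and for 7.69% of all 33561 measured ones. All 9 had both heated arrays below both others, as did 33.6% of all measured probe sets. The bulk leaf RNA cannot tell fewer cells of a type from less RNA per cell.

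The heat change was also tested over the 4 arrays at once, with a limma fit of seed background and temperature across the 33561 measured probe sets and Benjamini-Hochberg adjustment. It compares 2 heated with 2 unheated arrays, takes the difference of the heat changes between the seed backgrounds as its error and has 1 residual degree of freedom. limma then moderates that error toward a value estimated from all measured probe sets, with 2.86 prior degrees of freedom. The SEs, intervals and p-values below therefore rest largely on this shared value and not on each probe set's own spread. Of the 9 tubulin probe sets, 6 from 4 genes were called lower with heat at an adjusted p under 0.05 and 0 higher, beside 13.9% of all measured probe sets called lower and 15.8% called higher. tubb1 fell by 2.29 on the log2 scale (SE 0.16, limma adjusted p = 0.0058), the lowest adjusted p of the 9. tubb3 fell by 1.80 (SE 0.26, limma adjusted p = 0.018) and tubb2 fell by 1.28 (SE 0.18, limma adjusted p = 0.017).

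Among the Tubb5 probe sets, Ta.214.2.A1_at fell by 1.48 and Ta.214.2.A1_x_at fell by 1.47, with limma adjusted p of 0.0090 and 0.012. Ta.214.1.S1_at fell by 0.71 (limma adjusted p = 0.032), and its partner Ta.214.1.S1_x_at had -0.57 (limma adjusted p = 0.050475, just over the threshold). Tubb4 and TUBA were not called. Tubb4 had -0.63 with a 95% interval from -1.13 to -0.14 and a limma adjusted p of 0.068. For TUBA the value was -0.22, with a limma adjusted p of 0.31 and an interval from -0.60 to 0.17, which includes 0. The interval of tubb1, -2.73 to -1.85, did not reach those of Tubb4 and TUBA. Nor did it reach those of tubb2 (-1.78 to -0.78) and Ta.214.1.S1_at (-1.09 to -0.32), which were called. A direct test between probe sets was not made.

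Where the floor is kept, these calls depend on leaving out the probe sets held at it. With all 61115 probe sets in the fit, 27554 of them held at the floor on all 4 arrays, limma called 0 tubulin probe sets (5 at an unadjusted p under 0.05) and 0.018% of all. Without the floor, as an alternative added after the data were seen, it called 6 over the measured probe sets, beside 31.1% of them, and 5 over all probe sets, beside 12% of all. An exact permutation test of 2 against 2 arrays cannot give a two-sided p under 0.333, so none is given for single probe sets.

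**Figure D2:**
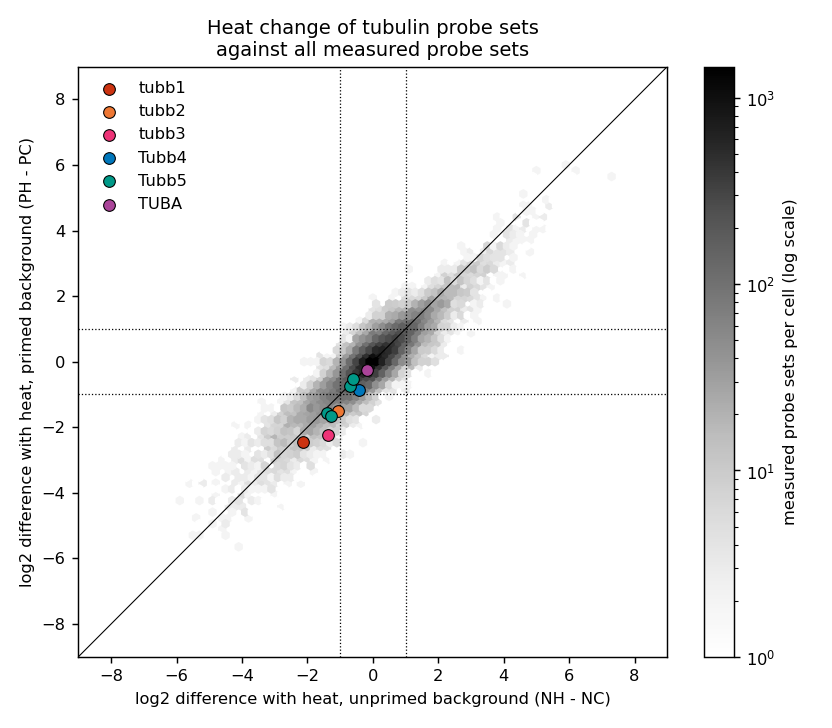
Log2 difference with heat in the unprimed background (x axis, NH minus NC) and in the primed background (y axis, PH minus PC). Grey cells count all 33561 measured probe sets on a log colour scale, coloured points are the 9 measured tubulin probe sets, dotted lines mark 2-fold and the diagonal equal change. All 9 points are below 0 on both axes, with tubb1 at -2.14 and -2.45, and 8 of 9 lie below the diagonal.

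Without heat, no tubulin probe set differed by 2-fold between progeny of primed and unprimed plants. Of the 9 measured probe sets, 0 were past 2-fold in PC against NC, as were 0.761% of all measured ones. The tubulin median was -0.03, beside 0.01 over all, and 5 of 9 were lower by any amount, against 48% of all. tubb2 had the widest difference, 0.49, from 134 on NC to 189 on PC, and 95.4% of measured probe sets had a lower value. The other 8 lay between -0.10 and 0.06.

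Under heat, 0 of 9 were past 2-fold in PH against NH, beside 3.77% of all measured probe sets. tubb3 was closest, at 309 on NH and 164 on PH, 1.89-fold lower in the progeny of primed plants. Of measured probe sets, 1.78% had a lower difference than its -0.92. Tubb4 followed with -0.47, tubb1 with -0.38 and the Tubb5 probe set Ta.214.2.A1_x_at with -0.37. In all, 7 of 9 were lower in PH and 2 higher, against 50.4% lower over all measured probe sets. The 2 higher were tubb2, at 0.04, and Ta.214.1.S1_x_at of Tubb5, at 0.14. The tubulin median was -0.18, beside 0.00 over all. On this pair of arrays the poly-A controls had a median ratio of 0.557, PH over NH, and the hybridization controls 0.857 (27 probe sets); their part in these values was not tested.

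For scale, 95% of measured probe sets differed by less than 0.57 on the log2 scale between NC and PC, and by less than 0.89 between NH and PH. Among the tubulins, the tubb3 difference under heat was the 1 value beyond these bounds.

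**Figure D3:**
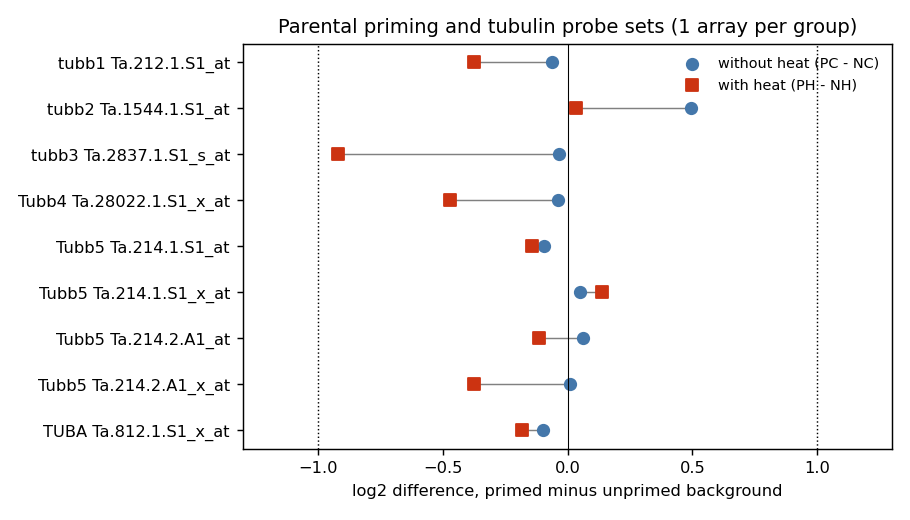
Log2 difference between the primed and the unprimed seed background (x axis) for the 9 measured tubulin probe sets, without heat (circles, PC minus NC) and with heat (squares, PH minus NH), 1 array per group. Dotted lines mark 2-fold. All values stay within 2-fold, with tubb3 under heat at -0.92 and tubb2 without heat at 0.49 standing apart from the rest.

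In the limma fit over the 4 arrays, 0 of the 9 tubulin probe sets were called for priming, as were 0 of all 33561 (0% called; 4.24% of all, and 0 of the 9, had an unadjusted p under 0.05). limma adjusted p for the tubulins ran from 0.879 to 0.987. The intervals were wide: for tubb3 the priming term was -0.48 with a 95% interval from -1.22 to 0.26, and for tubb2 it was 0.26, from -0.24 to 0.77. This term averages both temperatures, and the order of 2 arrays within one temperature has no test.

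The heat change was more negative in the primed than in the unprimed background at 8 of 9 tubulin probe sets, as at 50.6% of all measured ones, but at 0 by 2-fold or more (4.55% of all). The median of the differences was -0.31, beside 0.00 over all. tubb3 had -0.88, tubb2 -0.46, Tubb4 -0.43, Ta.214.2.A1_x_at of Tubb5 -0.38 and tubb1 -0.31. The Tubb5 probe sets Ta.214.2.A1_at and Ta.214.1.S1_at had -0.17 and -0.05, and TUBA had -0.08. Ta.214.1.S1_x_at of Tubb5 was the 1 above 0, at 0.09. For tubb2 the difference came with a higher PC array, and for tubb3 with a lower PH array. With 1 array per group, this difference has no test.

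Probe sets that share a tubulin probe set's cluster number but have no gene name were looked at beside the members and are not counted among them; whether they read tubulin transcripts is not settled by the annotation. The number of Tubb4 is shared by 3. Of these, Ta.28022.3.S1_at had 172 (NC), 279 (NH), 168 (PC) and 301 (PH), and Ta.28022.3.S1_x_at had 267 (NC), 423 (NH), 252 (PC) and 428 (PH). Both rose with heat, by 0.77 and 0.71 on the log2 scale (limma adjusted p = 0.028 and 0.032), opposite in sign to the Tubb4 probe set itself. The remaining one, Ta.28022.2.A1_at, had -0.39 (limma adjusted p = 0.175).

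The TUBA number Ta.812 is shared by 4. Ta.812.2.A1_x_at had 149 (NC), 39.6 (NH), 154 (PC) and 42.3 (PH), and fell by 1.89 (limma adjusted p = 0.0062). The other 3 had heat terms of -0.27, 0.16 and 0.20 and were not called, with limma adjusted p from 0.323 to 0.491. Small and large differences thus stood side by side within the cluster of the alpha-tubulin.

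Of the wider cytoskeleton list, profilin (PRO1), an actin-binding protein, was the 1 gene with a probe set. It read 4192 (NC), 4289 (NH), 4344 (PC) and 3865 (PH), all within a narrow band. Its log2 differences with heat were 0.03 and -0.17, and limma did not call it (adjusted p = 0.770). Actin, the other filament protein, was seen only through 4 of the array's control probe sets, added after the data were seen. One was below the floor on all arrays, and the others lay between 13.3 and 38.3, with heat differences from -0.74 to 0.59 and none past 2-fold. A list of cell wall and growth genes matched 0 named genes. XTH, a xyloglucan endotransglucosylase that remodels the wall, was named after its values were seen and had 21.3 (NC), 18.3 (NH), 21.6 (PC) and 15.6 (PH), close to the floor.

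Of 6 genes for histones and a high mobility group protein, listed as markers of dividing cells, 5 were measured, and 3 were past 2-fold downward with heat in both backgrounds, beside 7.69% of all measured probe sets. The histone H2B gene wcH2B-8 had 511 (NC), 59.8 (NH), 548 (PC) and 55.9 (PH). Hmgb3, a chromatin protein, had 937 (NC), 398 (NH), 1219 (PC) and 512 (PH), and the H2B gene wcH2B-6 had 109, 46.9, 67.8 and 31.7. The remaining differences were smaller: H2A-9 had log2 differences of -0.96 and -0.91, and H2A-3 -0.10 and -0.21. H2A-2 was below the floor on all arrays. The list summed to 1655 (NC), 573 (NH), 1940.3 (PC) and 672 (PH). Its part in the tubulin differences was not tested.

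**Figure D4:**
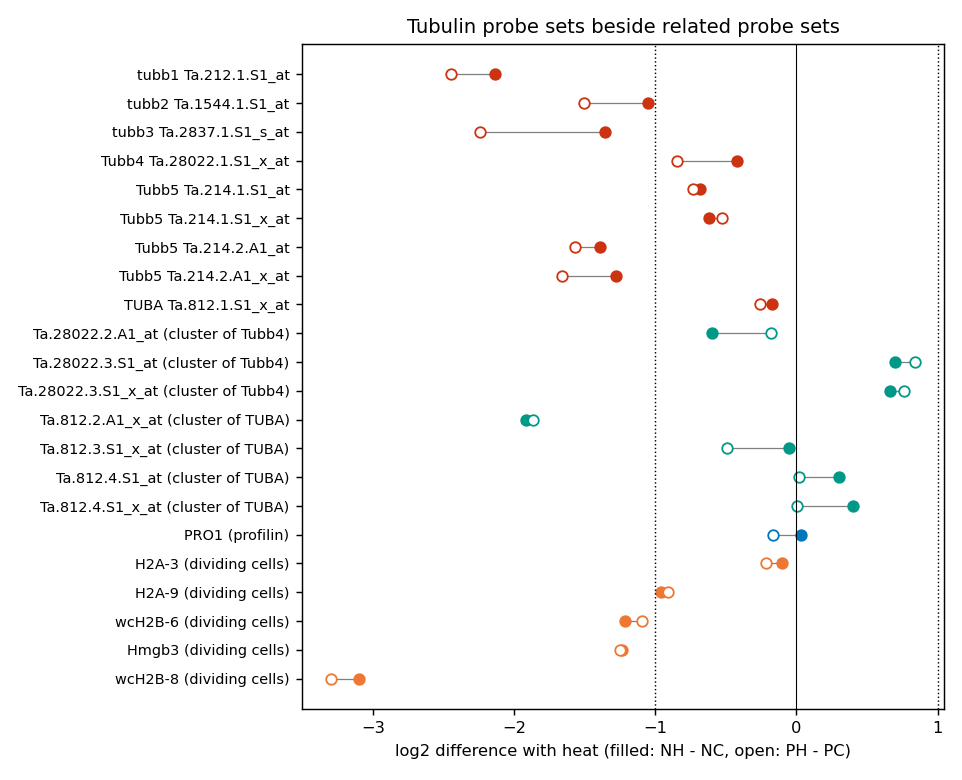
Log2 difference with heat (x axis; filled points NH minus NC, open points PH minus PC) for the 9 measured tubulin probe sets (red), the 7 unnamed probe sets with the cluster numbers of Tubb4 and TUBA (green), profilin (blue) and the 5 measured genes of the dividing cell list (orange). Dotted lines mark 2-fold. wcH2B-8 is the farthest left at -3.10 and -3.29, and profilin lies near 0. Above 0 in both comparisons are 2 probe sets of the Tubb4 cluster. Ta.812.4.S1_at and Ta.812.4.S1_x_at of the TUBA cluster are also above 0 in both, by less.

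Likeness was measured as the Euclidean distance between log2 profiles over the 4 arrays, each centred on its mean, among 60 genes with a functional symbol above the floor on all arrays, tubulins left out. Nearest to tubb1 among them were Prx1 (distance 0.47), the gene WZF1 (0.64), lgul, glyoxalase I (0.69), and the ribosomal protein gene CL9, also called RPL9 (0.78). Pearson correlations with tubb1 over the 4 arrays were 0.96 to 0.98. Prx1 had 1876 (NC), 352 (NH), 1657 (PC) and 424 (PH).

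For tubb3, SAHH, S-adenosylhomocysteine hydrolase, was at a distance of 0.31 and COMT1, caffeic acid O-methyltransferase of lignin synthesis, at 0.39. Next among these genes were wcH2B-6 at 0.83 and lgul at 0.87. SAHH had 5532 (NC), 2267 (NH), 4300.1 (PC) and 1012 (PH), and COMT1 had 1208, 491, 881 and 209 on the same arrays. Like tubb3, both were lowest on PH. tubb1 and tubb3 themselves were 0.62 apart, so tubb3 was nearer to tubb1 than WZF1 was. tubb3 was 0.51 from the Tubb5 probe set Ta.214.2.A1_x_at, 0.66 from Ta.214.2.A1_at and 1.67 from TUBA. With 4 arrays, these distances are a description.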

How the data were processed

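The members and gene lists were chosen with earlier results of these data known. RNA (6 µg of total RNA per sample) was hybridized to Affymetrix arrays, per the labels' protocols. The authors deposited linear probe set intensity; MAS5 is named per the submitters' processing notes, with no version, and how arrays were scaled to each other is not stated. About 4% of the values (4.09% to 4.22% per array) lay on 1 shared grid of 0.25 steps with the same offset on all arrays, which separate scaling factors per array would not give; how it arose is not known. Some tubulin values share decimals in this way, among them tubb3 on NH (309.364) and PC (774.364). The Tubb5 probe sets Ta.214.1.S1_x_at on PH and Ta.214.2.A1_x_at on NH both read 41.6141.

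Of 61290 probe sets, 175 controls were left out. Names came from the platform annotation and, through gene IDs, from RefSeq genes of wheat (IWGSC CS RefSeq v2.1), of which only names were used: 1273 probe sets had 1 symbol, 0 several and 59842 none, and 770 of 771 symbols matched. That table has no descriptions, so lists were matched on symbols and synonyms. All tubulin probe sets are named; 4 nearest genes are named for tubb1 and for tubb3. The fit used limma 3.58.1 (lmFit and eBayes, 95% intervals from the moderated variance) in R 4.3.3. The other steps ran in Python 3.11.15 with pandas 2.3.3 and numpy 2.4.6, and figures were drawn with matplotlib 3.10.9. The fit was also run on simulated data with known heat and priming changes, as a check of the code. The simulated noise was not estimated from these arrays, so that run does not bear on the calls. P-values measure the spread between these arrays alone, pooled in part over all measured probe sets.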

Additional observations from a re-analysis of the deposited data

How the results depend on the processing

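Each result was recomputed with array medians made equal, with quantile normalization, with the floor moved to the 25th percentile (4.20) or the 75th (53.6), with the floor added as a pseudocount, with a 3-fold rule, and with _at probe sets alone; for limma, also a variance trend with robust fitting, no filter, and no floor. Replicates could not be paired, because each group has 1 array and the labels number no replicates. The limma fit itself pairs the arrays by seed background, setting heated against unheated within each. The count past 2-fold was 5 of 9 in each heat comparison as reported, and 4 for NH against NC with equal medians and with the pseudocount, where tubb2 missed 2-fold. With the 75th percentile floor it was 3 and 3, with medians of -0.42 (NH against NC) and -0.88 (PH against PC). At 3-fold it was 1 (NH against NC) and 3 (PH against PC), and among the 4 measured _at probe sets 3 and 3. The PH against PC median was -1.18 with the 25th percentile floor, where 10 probe sets counted, and -1.21 with the pseudocount. The limma heat count of 6 was 0 with no filter, where 27554 probe sets have 4 equal values, 4 of 4 with _at probe sets alone, and 5 to 8 of 9 or 10 under the other alternatives. For tubb1 the limma adjusted p ranged from 0.0022 to 0.24, the latter with no filter. With no filter it reached 0.35 for tubb2 and 0.42 for tubb3. The Tubb5 probe set Ta.214.1.S1_at ranged from 0.029 to 0.998, the latter with the 75th percentile floor, where its heat term was -0.0008. Priming counts were 0 under all alternatives run, and no value called for heat changed sign. A median was taken as moved when it shifted by over 0.23 on the log2 scale, the scaled median absolute deviation of PC against NC. Counts were judged by their ratio to the reported count, and single probe sets by whether they crossed their threshold.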
